A study of Mus musculus with 2 samples.

Results

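The insulin and IGF receptor signalling genes described here are 10 genes, *Insr*, *Igf1r*, *Igf2r*, *Irs1*, *Pik3r1*, *Akt1*, *Akt2*, *Grb10*, *Ptpn1* and *Trib3*. They were picked by gene symbol, and all 10 were found among the 53241 distinct symbols listed for 2 mouse liver libraries. One library came from control liver and the other from the liver of iFIRKO mice, in which a tamoxifen-inducible Cre recombinase (Adipoq-CreERT2) removes the insulin receptor gene, *Insr*, carried as a flox/flox allele. The Cre is driven by the adiponectin promoter and so acts in adipocytes, not in hepatocytes. The sample labels give the control genotype as WT, whereas the methods of the study give IR flox/flox. All mice were males, 7 weeks old at the first injection, and tamoxifen (100 mg/kg) was given to both groups on 5 days, with the liver taken 3 days later. No source used here says whether a library was made from 1 mouse or from a pool. With 1 library per group no test of genotype was possible, no value has a replicate error, and effects of genotype, of the Cre itself and of differences between mice cannot be told apart.

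Insulin binds the insulin receptor on hepatocytes, which then phosphorylates docking proteins of the IRS family. These recruit PI 3-kinase, made of a regulatory and a catalytic subunit, whose lipid product activates the AKT kinases, and AKT in turn restrains glucose production and promotes lipid and glycogen synthesis. The IGF1 receptor is a close relative of the insulin receptor that uses the same relay but is scarce in adult hepatocytes, and several adaptors, phosphatases and pseudokinases damp the relay at each step. The comparison asks how the liver expressed this relay when the insulin receptor had been removed in adipocytes of the same animals.

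The deposited values, normalized read counts on a log2 scale, were returned to the linear scale. The 2 libraries held an estimated 42276968 reads (control) and 41305480 reads (iFIRKO) on genes. A fold change is iFIRKO over control with a pseudocount of 4.18 normalized reads added to both, and the 13400 genes with at least 41.8 normalized reads in either library were compared. The intervals printed beside fold changes and shares are 95% exact Clopper-Pearson intervals on estimated read pairs and cover counting error only. Those of shares also take the transcript lengths and the mix of the other paralogs as fixed. Whether 2 intervals overlap therefore says nothing about the spread between mice. How often the shares of other gene families differ beyond counting error was not counted. Albumin and the other hepatocyte markers were abundant, with 7 of 7 at a level that allowed comparison. Of 6 adipocyte markers, *Adipoq*, *Plin1*, *Lep*, *Cfd* and *Retn* were listed at 0 in the control library. In the iFIRKO library *Lep* and *Retn* were again at 0, and *Adipoq* and *Plin1* were at 2.01 normalized reads each, which is 1 read pair, while *Cfd* was at 8.05. The sixth, *Fabp4*, which endothelial cells also express, had 469.9 and 469.0 normalized reads.

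All 10 genes passed the minimum. *Trib3* was more than 1.5-fold lower in the iFIRKO liver and 0 of 10 were more than 1.5-fold higher, so 1 of 10 was lower against 7.28% of all genes compared, and 0 of 10 higher against 4.46%. *Pik3r1* came next in size and was 1.47-fold higher, just short of that threshold. The other 8 genes were within 0.3 of no change on the log2 scale, as were 69.0% of all genes compared. The median log2 fold change over the 10 genes was -0.035, beside 0.008 over all genes compared.

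**Figure D1:**
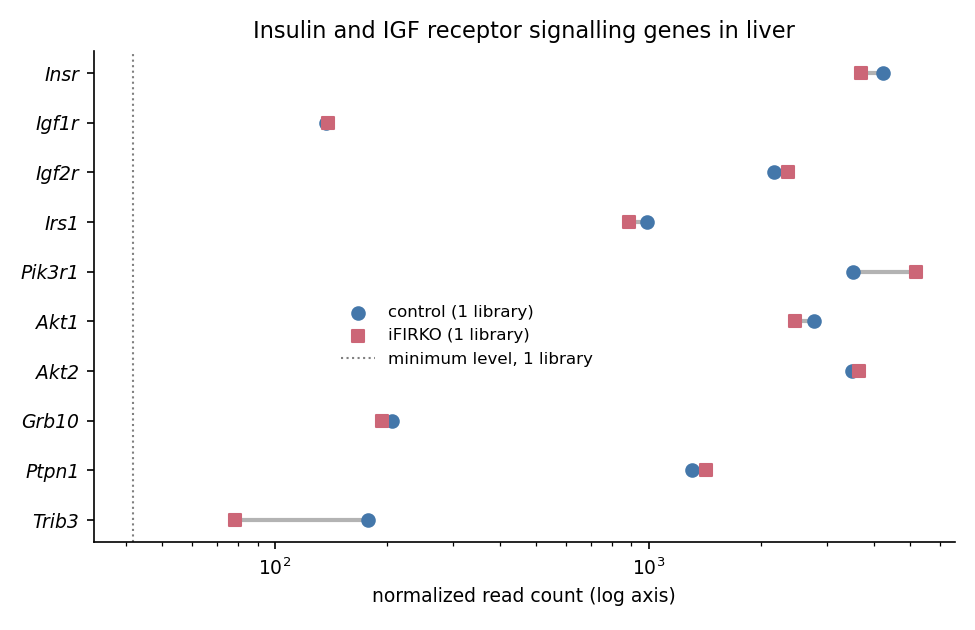
Normalized read count (log axis) of the 10 genes in the control library (circles) and the iFIRKO library (squares), with the minimum of 41.8 normalized reads as a dotted line. *Pik3r1* moved from 3512 to 5177 and *Trib3* from 177.8 to 78.5, while the 2 points of each of the other genes lie close together.

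Among the receptors, *Insr* (chromosome 8 of GRCm38, 3122061 to 3279617, reverse strand) encodes the insulin receptor and is the gene targeted in adipocytes. Its normalized read count was 4246 in control and 3692 in iFIRKO. The log2 fold change was -0.20 (interval -0.29 to -0.11), which is below 0 but does not reach the threshold of 0.585 for 1.5-fold. Since the deletion is directed at adipocytes, whose markers other than *Fabp4* were at or near 0 in both libraries, this value does not check the genotype labels. The count covers the whole gene and cannot show whether a floxed exon was absent. The paper also measured *Insr* mRNA in adipose tissue and in liver, and those values were not used here.

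*Igf1r* (chromosome 7, 67952827 to 68233668) encodes the IGF1 receptor. Its count was 137.1 in control and 138.9 in iFIRKO, so the log2 fold change was 0.02. With 69 read pairs in each library the interval ran from -0.48 to 0.52, so a difference of up to about that size was not detectable at this depth. Divided by the length of the longest annotated transcript, which need not be the form used in liver, *Insr* stood at 453.8 normalized reads per kb in control and *Igf1r* at 12.02. *Insr* thus made up 97.4% of the summed level of the pair per length in the control library (interval 96.7 to 98.0) and 97.0% in the iFIRKO library (96.2 to 97.7). The insulin receptor gene was by far the more abundant of the pair in both livers.

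*Igf2r* (chromosome 17, 12682406 to 12769664, reverse strand) encodes the IGF2 and mannose-6-phosphate receptor, which has no kinase and delivers IGF2 and lysosomal enzymes to the lysosome. Its count was 2162 in control and 2366 in iFIRKO, with a log2 fold change of 0.13 (interval 0.01 to 0.25). The antisense transcript *Airn* overlaps the *Igf2r* locus on the opposite strand but shares no exon bases with it, and was listed at 34.8 and 47.7 normalized reads. Among the ligands, *Igf1*, the hormone that the liver secretes in quantity, had 22700 and 21480 normalized reads and a log2 fold change of -0.08. *Igf2* was at 7.94 and 1.51 normalized reads, under the minimum, and the insulin receptor-related gene *Insrr* was listed at 0 and 2.01.

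*Irs1* (chromosome 1, 82233101 to 82291416, reverse strand) encodes a docking protein that the receptors phosphorylate. Its count was 987.2 in control and 887.9 in iFIRKO, and the interval of the log2 fold change of -0.15 reached from -0.34 to 0.03, across no change. Its relative *Irs2*, the other docking protein of hepatocytes and itself a gene that insulin is known to suppress, went from 3005 to 1232 normalized reads. The log2 fold change was -1.28 (interval -1.42 to -1.15), past the threshold over the whole interval. *Irs4* was listed at 0 in both libraries.

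Per length, *Irs2* was the more abundant docking gene in each liver, at 475.2 normalized reads per kb in control and 194.8 in iFIRKO, against 108.0 and 97.1 for *Irs1*. The *Irs1* share of the pair per length was 18.5% in control (interval 17.0 to 20.1) and 33.3% in iFIRKO (30.6 to 36.1). Summed over both genes, the docking genes stood at 583.2 normalized reads per kb in control and 291.9 in iFIRKO, a log2 ratio of -0.998. The lower sum was carried by *Irs2*, while *Irs1* stayed within its counting interval of no change.

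The promoters of *Irs1* and *Irs2* each hold an E-box (CACGTG) close to or overlapping the letters TGTTTTG. The latter are the reverse complement of CAAAACA, a core of the insulin response elements bound by FOXO factors. They are shown because these windows are alike, while *Irs2* was past the threshold and *Irs1* was not. Capitals mark the 2 motifs and any bases between them, read 5′ to 3′ on the strand of the gene.
*Irs1*, chr1:82291536-82291562, reverse strand: ggctccgtCACGTGTTTTGctcctctg
*Irs2*, chr8:11008952-11008981, reverse strand: cgcagagtCACGTGTTGTTTTGctcttagt
In *Irs1* the motifs share the letters TG, and in *Irs2* 1 base lies between them. On either strand, CAAAACA was found in 6.28% and the E-box in 7.15% of all 32851 RefSeq promoter windows of 300 bases on GRCm38.p6. *Irs1* holds CAAAACA on the opposite strand at another position too. Among the 9 members with a window, it was the only one with CAAAACA, *Akt1* the only one with the related FOXO letters GTAAACA (3.65% of all windows), and *Igf2r* the only other one with an E-box, which it holds 2 times. These are matches of letters and not sites shown to be bound.

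*Pik3r1* (chromosome 13, 101680563 to 101768217, reverse strand) encodes the main regulatory subunits of PI 3-kinase, which hold the catalytic subunit and couple it to IRS proteins. Its count was 3512 in control and 5177 in iFIRKO, or 1768 and 2571 estimated read pairs. The log2 fold change was 0.56 (interval 0.47 to 0.65), so the interval spans the threshold of 0.585 and stays clear of 0. It was the largest upward difference among the 10 genes. The other regulatory subunit genes differed less, with *Pik3r2* at 854.5 and 846.4 normalized reads (log2 fold change -0.01) and *Pik3r3* at 85.8 and 115.1 (0.41, interval -0.17 to 1.03).

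Per length, *Pik3r1* made up 63.3% of the 3 regulatory subunit genes in control (interval 60.9 to 65.7) and 71.6% in iFIRKO (69.5 to 73.6). The 3 genes together went from 780.1 to 1017 normalized reads per kb, a log2 ratio of 0.38. The catalytic subunit gene *Pik3ca* had 1390 and 1345 normalized reads (log2 fold change -0.05), and *Pik3cb* had 664.9 and 771.3 (0.21). The ratio of *Pik3r1* to *Pik3ca* per length was therefore 3.17 in control and 4.83 in iFIRKO, and that of *Pik3r1* to *Pik3cb* was 4.81 and 6.11. Both ratios were higher in the iFIRKO library. A ratio within a library does not depend on how the libraries were scaled to each other.

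*Akt1* and *Akt2* encode the kinases that carry the signal on from PI 3-kinase, *Akt2* being the form most closely tied to insulin action in the liver. *Akt1* (chromosome 12, 112653821 to 112674884, reverse strand) had a count of 2774 in control and 2458 in iFIRKO, with a log2 fold change of -0.17 (interval -0.29 to -0.06). *Akt2* (chromosome 7, 27591552 to 27640826) had 3506 and 3661, and its log2 fold change of 0.06 (interval -0.03 to 0.16) spanned no change. The *Akt1* share of the pair per length was 57.2% in control (interval 55.5 to 58.9) and 53.1% in iFIRKO (51.3 to 55.0). The log2 change of the ratio of *Akt1* to *Akt2* was -0.236. *Akt1* exceeded *Akt2* per length in both libraries, whereas by reads not divided by length *Akt2* exceeded *Akt1*.

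**Figure D2:**
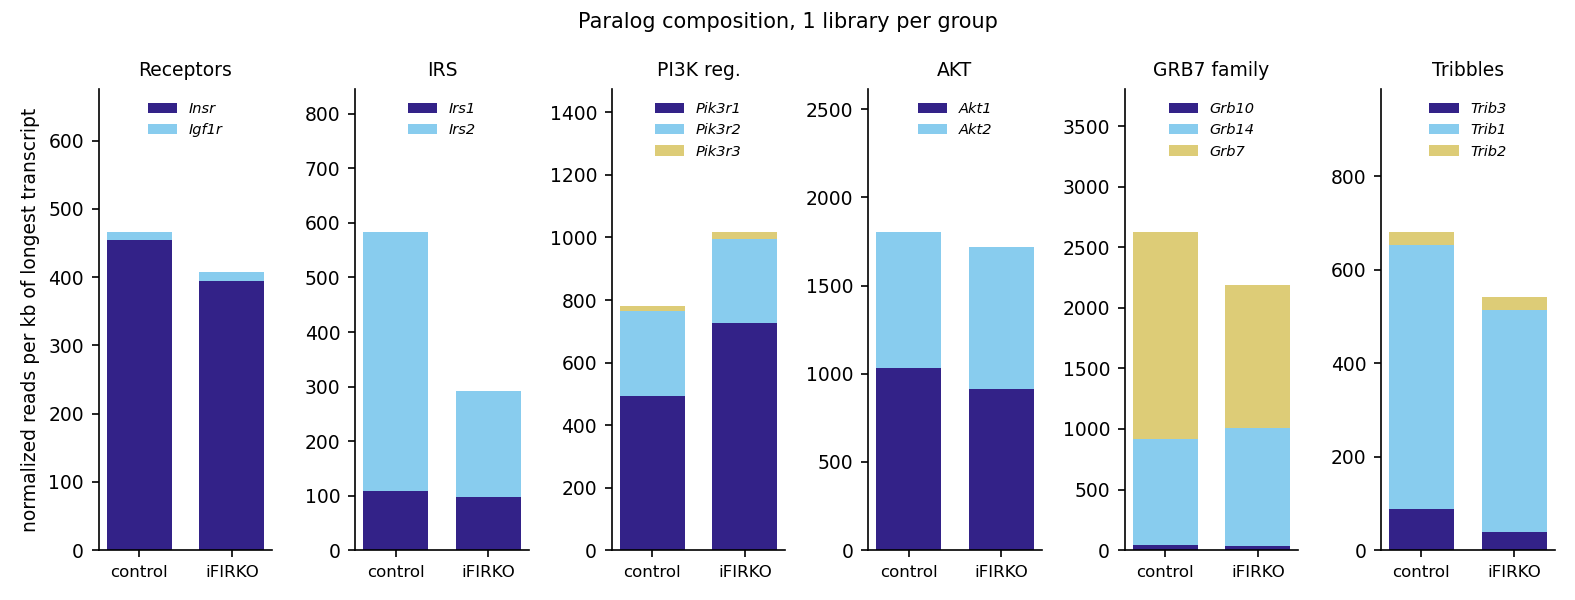
Stacked normalized reads per kb of the longest transcript for members and their paralogs, 1 bar per library, with no error bars since each group has 1 library; each panel has its own axis from 0. The *Irs2* segment is the main difference in the IRS panel, where the sum goes from 583.2 to 291.9, and the *Pik3r1* segment in the panel of PI 3-kinase regulatory subunits, where it goes from 780.1 to 1017.

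Of the inhibitors, *Grb10* (chromosome 11, 11930508 to 12038683, reverse strand) encodes an adaptor that binds the activated insulin and IGF1 receptors and restrains them. Its count was 205.6 in control and 193.3 in iFIRKO, with a log2 fold change of -0.09 (interval -0.50 to 0.33). Its relatives were far more abundant. *Grb14* had 1746 and 1919 normalized reads (log2 fold change 0.14) and *Grb7* had 4088 and 2828 (-0.53, interval -0.63 to -0.43). *Grb10* made up 1.54% of the 3 genes per length in control (interval 1.26 to 1.87) and 1.75% in iFIRKO (1.42 to 2.14).

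*Ptpn1* (chromosome 2, 167932057 to 167979385) encodes a tyrosine phosphatase that removes phosphate from the insulin receptor. Its count was 1309 in control and 1420 in iFIRKO, and the interval of the log2 fold change of 0.12 reached from -0.04 to 0.27, across no change. The related phosphatase gene *Ptpn2* had 569.9 and 510.4 normalized reads (log2 fold change -0.16, interval -0.41 to 0.09).

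*Trib3* (chromosome 2, 152337422 to 152344032, reverse strand) encodes a pseudokinase that binds AKT and is known as a target of the stress factors ATF4 and CHOP. Its count was 177.8 in control and 78.5 in iFIRKO, or 90 and 39 estimated read pairs. The iFIRKO value was 2.20-fold lower. On the log2 scale this is -1.14 (interval -1.77 to -0.63), so the whole interval lay past the threshold. Among the 10 genes this holds of *Trib3* alone. The share of all genes compared of which it holds was not counted, so how unusual it is cannot be said. *Trib3* was low in both livers, and with a minimum CPM of 5 it would not have been compared. Its relatives differed less, with *Trib1* at 2444 and 2059 normalized reads (log2 fold change -0.25) and *Trib2* at 119.2 and 114.7 (-0.05). *Trib3* made up 13.0% of the 3 Tribbles genes per length in control (interval 10.6 to 15.6) and 7.15% in iFIRKO (5.17 to 9.59).

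**Figure D3:**
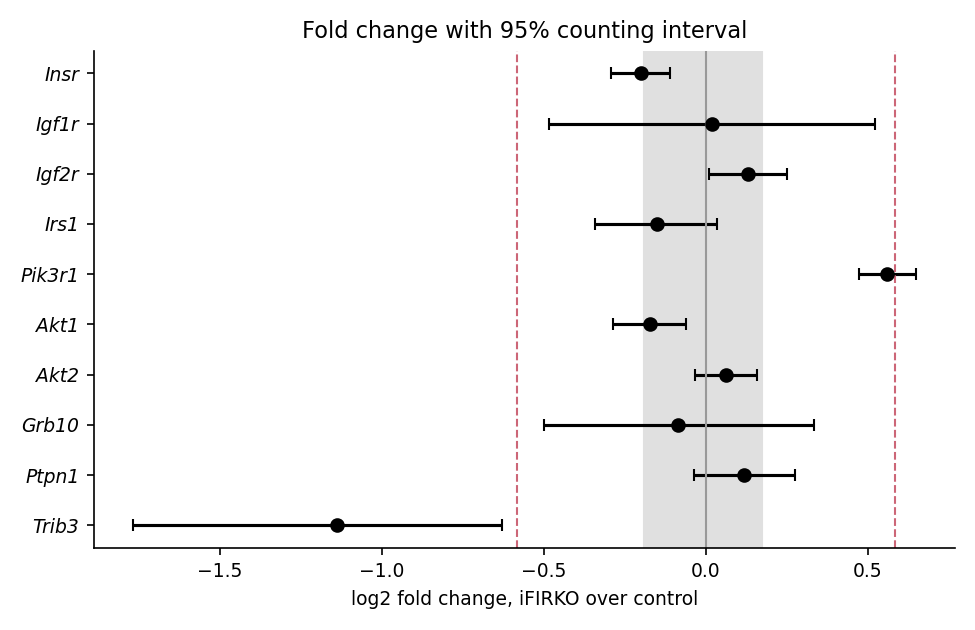
Log2 fold change (iFIRKO over control) of the 10 genes, with bars for the 95% counting interval, dashed lines at 1.5-fold in each direction and a grey band for the quartiles of all 13400 genes compared (-0.191 to 0.172). The *Trib3* interval lies wholly past the lower line and the *Pik3r1* interval crosses the upper one.

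Of 12 genes of the ATF4 and CHOP stress response, 10 passed the minimum, of which 3 were more than 1.5-fold higher and 1 lower (4.46% and 7.28% of all genes), with a median log2 fold change of 0.10 beside 0.008. The lower gene was *Chac1*, a glutathione-degrading enzyme, which went from 187.3 to 82.0 normalized reads (log2 fold change -1.15, interval -1.74 to -0.63), close to the values of *Trib3*. *Asns*, asparagine synthetase, went from 59.8 to 124.8 (1.01, interval 0.42 to 1.75). *Psat1*, an enzyme of serine synthesis, went from 48.5 to 94.6 (0.91, interval 0.25 to 1.76), and the stress-induced factor *Atf3* from 99.1 to 167.9 (0.74, interval 0.23 to 1.29). All 3 of these intervals reach below the threshold of 0.585. *Atf4* itself had 3598 and 3285 normalized reads, a log2 fold change of -0.13, and *Ddit3*, which encodes CHOP, had 201.1 and 206.9 (0.04). Of the 10 genes compared, 7 were above 0 and 3 below.

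The composite C/EBP-ATF letters through which ATF4 is known to act, TGATGNAA or TTNCATCA on the other strand, were found in 3.97% of all promoter windows. *Trib3*, *Asns* and *Chac1* each hold a match, and they are shown because the first and last were lower and *Asns* higher in the same library. Capitals mark the match.
*Trib3*, chr2:152344028-152344057, reverse strand: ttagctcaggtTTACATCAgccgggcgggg
*Chac1*, chr2:119351038-119351067, forward strand: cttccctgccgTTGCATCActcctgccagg
*Asns*, chr6:7693214-7693243, reverse strand: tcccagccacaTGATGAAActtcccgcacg
*Ddit3* holds none in its window. The windows of the other ATF4 and CHOP genes, *Atf3* and *Psat1* included, were not looked up. Of the other members with a window, *Akt2* alone holds a match.

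Beyond the 10 genes, 82 further genes of the insulin and IGF pathway were listed by role, of which 77 passed the minimum. More than 1.5-fold higher were 0 of 77 and lower were 7 of 77, beside 4.46% and 7.28% of all genes compared, and the median log2 fold change was -0.024 beside 0.008. The 7 lower genes were *Irs2* and *Dok1* among 11 adaptors, *Pik3cd* and *Pik3cg* among 8 PI 3-kinase genes, *Tbc1d4* among 12 genes of the AKT arm, and *Socs2* and *Spry4* among 19 inhibitors. None of the 4 ligand and ligand-handling genes, 13 mTOR-arm genes or 10 RAS-MAPK genes was past the threshold. In the mTOR arm *Mlst8*, a subunit of both mTOR complexes, came nearest with 351.7 and 526.7 normalized reads (log2 fold change 0.58, interval 0.30 to 0.87).

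*Socs2*, an inhibitor of growth hormone and cytokine receptors, had the lowest log2 fold change of the list at -1.55 (interval -1.87 to -1.27), from 741.2 to 250.5 normalized reads. *Spry4*, an inhibitor of the RAS-MAPK branch, went from 350.9 to 178.4 (-0.96, interval -1.36 to -0.60). *Pik3cd*, a catalytic subunit found mainly in leukocytes, went from 567.0 to 302.6 (-0.90, interval -1.20 to -0.62). *Pik3cg*, also mainly a leukocyte gene, had 85.7 and 51.5 (-0.69), and its interval from -1.47 to 0.03 includes no change. *Dok1*, an adaptor of blood cells, had 103.8 and 58.4 (-0.79, interval -1.53 to -0.14), and *Tbc1d4*, an AKT substrate that controls glucose transporter traffic, had 153.6 and 98.7 (-0.62, interval -1.18 to -0.10).

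Leukocyte markers were lower in the same library. Over all genes compared, 7.28% were more than 1.5-fold lower and 4.46% higher, against which the marker counts stand. Of 7 Kupffer cell and macrophage markers, 5 were more than 1.5-fold lower, and their summed level went from 25150 to 16000 normalized reads. The pan-leukocyte gene *Ptprc* went from 980.3 to 514.0 (log2 fold change -0.93), and it is 1 of the 3 of 7 lymphocyte and NK cell markers that passed the minimum, all of them lower. The B cell gene *Cd79a*, also among them, had 113.4 and 17.1 normalized reads. *Ptprc* made up most of the sum over that list, which went from 1309 to 647.4. Of 7 endothelial markers, 3 were lower, with sums of 11250 and 7953, while the 7 stellate cell markers (11630 and 12670) and the 7 hepatocyte markers held none past the threshold. The part of these cell types in the lower *Pik3cd*, *Pik3cg* and *Dok1* was not tested, and in bulk liver fewer cells of a type and less RNA per cell cannot be told apart. All 4 erythroid markers compared were higher, with a median log2 fold change of 1.04. The 5 cholangiocyte markers held none past the threshold, and both neutrophil markers compared were lower (sums of 395.7 and 116.5 over 5 markers).

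**Figure D4:**
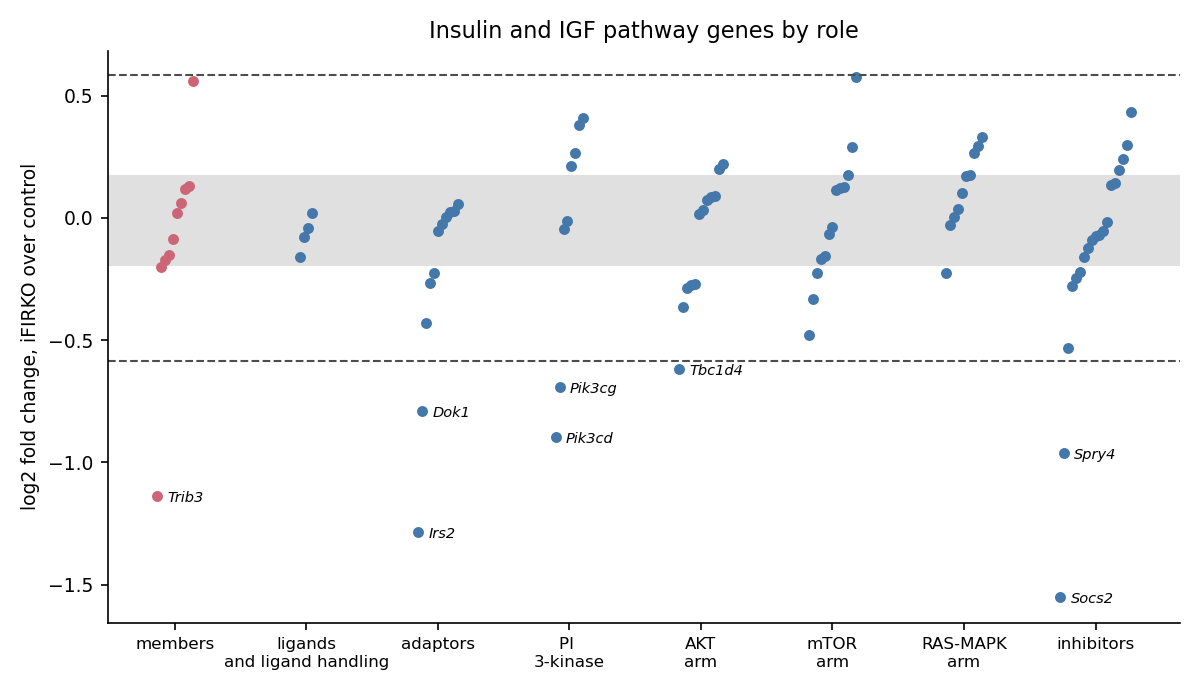
Log2 fold change (iFIRKO over control) of the 10 members and of 77 other pathway genes, grouped by role, 1 point per gene. Dashed lines mark 1.5-fold, the grey band the quartiles of all genes compared, and labelled points the genes past the threshold, all of them below: *Trib3* at -1.14, *Irs2* at -1.28 and *Socs2* at -1.55 are among them.

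Genes that insulin is known to control in hepatocytes were set beside the relay, 13 in all. Of these, 3 were more than 1.5-fold higher and 1 lower, beside 4.46% and 7.28% of all genes compared. Of 6 genes it suppresses, 5 were below 0 and 1 above, with a median log2 fold change of -0.34 beside 0.008 over all genes. *Igfbp1*, which encodes an IGF-binding protein, was past the threshold, going from 19280 to 7234 normalized reads (log2 fold change -1.41, interval -1.47 to -1.36). *Pck1*, the gluconeogenic carboxykinase, was at -0.46 and *G6pc*, glucose 6-phosphatase, at 0.35. Of 7 genes it induces, 5 were above 0 and 2 below, with a median of 0.55. Among them *Scd1* (0.72), *Fasn* (0.69) and *Acaca* (0.64), all enzymes of fatty acid synthesis, were more than 1.5-fold higher. *Srebf1*, their transcription factor, was at -0.18. The paper reports raised serum insulin, severe lipodystrophy and insulin resistance in iFIRKO mice. The part of these in the values of the insulin-controlled genes was not tested.

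Of the miRNAs the study centres on, miR-144-3p was searched here and miR-486a-3p was not. The paper reports significantly higher levels of both in iFIRKO liver. Its target experiments concerned *Txnip*, which is not among the 10 genes. The longest annotated 3′UTR of each of the 10 genes (GENCODE M21) was searched for the reverse complement of the miR-144-3p seed, bases 2 to 8, shown in capitals in the miRNA and as the matching letters in the 3′UTRs.
miR-144-3p: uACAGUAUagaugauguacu
*Irs1*, 3′UTR positions 925 to 931, chromosome 1, 82236695 to 82236701: cttccattgtaaATACTGTagaga
*Igf1r*, 3′UTR positions 3757 to 3763, chromosome 7, 68230158 to 68230164: ggtcactgggagATACTGTttgat
*Irs1* and *Igf1r* each held 1 match, that of *Irs1* being followed by an A, and the other 8 genes held 0. Such a match was present in 34.3% of 3′UTRs within 20% of the length of that of *Irs1*, and in 48.1% for *Igf1r*, whose 3′UTR of 7267 bases is the longest of the 10. The log2 fold change was -0.15 for *Irs1* (interval -0.34 to 0.03) and 0.02 for *Igf1r* (-0.48 to 0.52), and both intervals span no change. Each also includes lower values in iFIRKO, and these RNA values do not show protein. An effect of the miRNA on these genes was not tested.

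Ordered per length, the levels ran in the same order in both livers. *Akt1* was highest (1031 normalized reads per kb in control and 913.6 in iFIRKO), followed by *Akt2* (771.6 and 805.6), *Pik3r1* (493.8 and 727.8), *Insr* (453.8 and 394.6), *Ptpn1* (310.7 and 337.1), *Igf2r* (243.3 and 266.3), *Irs1* (108.0 and 97.1), *Trib3* (87.8 and 38.8), *Grb10* (40.6 and 38.2) and *Igf1r*. With 1 library per group the spread between mice is unknown, so no neighbours in this order can be said to differ beyond it. *Trib3* and *Grb10* were nearly level in the iFIRKO library, whereas *Trib3* was the higher of them in control. *Gm9747*, which overlaps the exons of *Irs1* on the opposite strand, was listed at 1 read pair in each library. Whether reads of the 2 genes were shared was not tested, since the counting tool and its use of strand are not given.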

How the data were processed

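Stranded mRNA libraries of total liver RNA were sequenced by the authors on the NovaSeq platform, 1 library per group. The deposited files hold the log2 of a normalized read count for 53342 gene symbol rows. The submitters' processing notes name the build mm10, and the aligner, the counting tool and its use of strand are not given in the sources used here. Values were returned to the linear scale, with a listed 0 kept at 0. The commonest low value was taken as 1 read pair (1.9871 normalized reads in control and 2.0133 in iFIRKO). Only 43.8% and 44.2% of values below 50 normalized reads were then whole within 0.01 of a pair, so read pairs are estimates, the values were not treated as counts, and intervals cover counting error only. A CPM of 1 corresponds to 41.792 normalized reads, and genes at this level in either library were compared, with a pseudocount of 0.1 CPM. The fold threshold of 1.5 is that of the study. No fold change is given for genes at 3 read pairs or fewer. Lengths and positions are those of GENCODE M21 on GRCm38 (the same assembly as mm10), with the longest protein-coding transcript as length, and promoter and miRNA sequences are those of RefSeq on GRCm38.p6.

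Members and gene lists were chosen with earlier results of these data known. Named genes are the 10 members, their paralogs, list genes past the threshold and markers listed at 0; *Pik3ca*, *Pik3cb*, *Mlst8*, *Igf1*, *Igf2*, *Atf4*, *Ddit3*, *Pck1*, *G6pc*, *Srebf1*, *Airn*, *Gm9747*, *Fabp4*, *Ptprc*, *Cd79a* and albumin were added after their values were seen, as were the promoter and seed searches. A few genes of these lists are counted but not reported here by name. The calculation of folds and intervals was tested on simulated data of whole read pairs with counting error only. That test checks the calculation and cannot show how the intervals behave with values that are not whole or with spread between mice. Alternatives were a pseudocount of 1 CPM, the plain ratio, no minimum, a minimum CPM of 5, median-ratio scaling, totals that leave out the 20 most abundant genes, a fold of 2, summed duplicate symbols and levels not divided by length. Intervals were computed with scipy 1.17.1 and figures drawn with matplotlib 3.10.9, under Python 3.11.15 with pandas 2.3.3 and numpy 2.4.6.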

Additional observations from a re-analysis of the deposited data

How the results depend on the processing

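The log2 fold changes of the 10 genes kept their sign in all 40 comparisons with another pseudocount, the plain ratio or another scaling, and all 40 stayed inside their counting intervals. *Trib3* ranged from -1.18 to -0.87 and *Pik3r1* from 0.547 to 0.56, and *Pik3r1* remained under the threshold in each. Median-ratio scaling and the total without the 20 most abundant genes moved all values by -0.007 and -0.012. With a minimum CPM of 5 *Trib3*, *Igf1r* and *Grb10* were left out, so 0 members were lower. At that minimum 4 pathway genes were lower, and 0 ATF4 and CHOP genes were higher and 0 lower, since fewer genes were compared. With a pseudocount of 1 CPM, 4 pathway genes were lower and 2 ATF4 and CHOP genes were higher. Without a minimum 9 pathway genes were lower. With a fold above 2 there were 2 lower pathway genes, 0 higher insulin targets and 1 higher ATF4 and CHOP gene. Over all genes the higher and lower counts were 371 and 576 with the pseudocount of 1 CPM, 1960 and 2620 without a minimum, 288 and 440 with the minimum CPM of 5, and 209 and 267 with a fold above 2. By reads not divided by length the *Akt1* share was 44.2% in control and 40.2% in iFIRKO, and the *Pik3r1* share 78.9% and 84.35%. No paired analysis was possible because a genotype has only 1 library. Depth limits *Igf1r*, *Grb10* and *Trib3* most, each with about 100 read pairs or fewer in a library.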
